A study of Homo sapiens with 2 samples.

Results

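Tumour cells carrying the hashtag pairs HTO4+HTO8 and HTO4+HTO9 were set against tumour cells carrying HTO2+HTO8 and HTO2+HTO9, to see which genes of the interferon response were higher in each. All 4 populations had raised interferon genes, but MHC class II genes led in the HTO4 populations and chemokine genes in the HTO2 populations. The pair of a barcode was its 2 highest counts among hashtags HTO2 to HTO9, provided that the second had at least 20 counts and at least 4 times the third. Barcodes counted as cells if they had at least 500 genes and no more than 20% of their UMIs (counted RNA molecules) were mitochondrial. Of 2994 such cells, 733 belonged to these populations: 197 to HTO4+HTO8 and 110 to HTO4+HTO9, and 185 to HTO2+HTO8 and 241 to HTO2+HTO9. The other 2261 cells belonged to 9 other hashtag pairs, and the matrix held 9083 barcodes in all. The populations were selected on measured interferon genes, among them HLA-DRA, CD74, CXCL10 and IDO1. Everything said of their expression is therefore a description, with no test.

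The cells came from tumours of OVCAR5, an established human ovarian carcinoma line, grown in NSG-B2m-/- mice, an immunodeficient strain that also lacks B2m, and injected with the cytokines IFNg (interferon gamma), TNFa (tumour necrosis factor alpha) or a mix of both. All tumour cells carried a reporter that senses IFNg, and CFP+ cells, which the protocol calls bystander cells, were sorted from the pooled suspension. The pool held 13 tumours: TNFa was used at 10 ng/ml and IFNg at 100 ng/ml, 3 tumours had TNFa for 6 h, 2 had both cytokines for 6 h, 2 had IFNg for 24 h and 1 for 48 h, and 2, 2 and 1 were unexposed at 6, 24 and 48 h. The sources used here do not tie a hashtag pair to a tumour, so the populations are named by their hashtags alone and no cytokine is assigned to any of them. The treatment fields of the library entries name 1 condition each, an unstimulated culture and TNFa, at odds with the pool, and were not used. Host, reporter and sort were common to all groups, and all came from 1 library, so the populations are not replicates of a known condition.

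IFNg signals through its receptor and the Janus kinases JAK1 and JAK2 to transcription factors that bind GAS elements and switch on IRF1, guanylate-binding proteins, chemokines and antigen-presentation genes. MHC class II genes need a further step: CIITA, the class II transactivator, is induced and then sits on factors bound to the X and Y (CCAAT) boxes of their promoters, so class II usually appears later than the direct targets of GAS-binding factors and IRF1. TNFa acts through NF-kB, and chemokine promoters such as that of CXCL10 carry both interferon and NF-kB elements. CXCL9, CXCL10 and CXCL11 attract T cells and natural killer cells through the receptor CXCR3, while MHC class II molecules present peptides to CD4+ T cells.

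The promoters of 4 class II genes and 4 genes higher in the HTO2 populations are shown because these groups separated the populations. Each run is the 250 bases before the RefSeq start on GRCh38.p14, 5′ to 3′ on the gene's strand. Capitals mark matches to 5 motifs on either strand, and overlapping matches merge. The GAS element was searched as TTCNNNGAA. The core of the interferon-stimulated response element (ISRE) was searched as GAAANNGAA. The CCAAT box was searched by its reverse complement ATTGG. Part of the X box was searched as ACNGATG, letters taken from the HLA-DRB1 promoter after it was read. The NF-kB site was searched by the kB consensus.
HLA-DRB1: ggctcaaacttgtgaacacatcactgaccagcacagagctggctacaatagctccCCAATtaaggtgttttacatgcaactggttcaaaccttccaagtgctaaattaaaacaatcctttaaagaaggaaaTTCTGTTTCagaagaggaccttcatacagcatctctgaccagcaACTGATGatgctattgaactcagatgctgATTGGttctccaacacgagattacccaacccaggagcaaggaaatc
HLA-DPB1: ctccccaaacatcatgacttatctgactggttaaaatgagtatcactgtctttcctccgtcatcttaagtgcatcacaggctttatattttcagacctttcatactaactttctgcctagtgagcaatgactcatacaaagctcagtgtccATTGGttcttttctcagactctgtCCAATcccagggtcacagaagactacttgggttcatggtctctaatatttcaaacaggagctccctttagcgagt
HLA-DMA: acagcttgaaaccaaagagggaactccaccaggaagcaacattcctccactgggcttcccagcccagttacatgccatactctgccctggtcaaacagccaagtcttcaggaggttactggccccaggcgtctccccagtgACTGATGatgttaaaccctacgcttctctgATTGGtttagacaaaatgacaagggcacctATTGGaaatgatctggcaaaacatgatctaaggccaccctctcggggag
CD74: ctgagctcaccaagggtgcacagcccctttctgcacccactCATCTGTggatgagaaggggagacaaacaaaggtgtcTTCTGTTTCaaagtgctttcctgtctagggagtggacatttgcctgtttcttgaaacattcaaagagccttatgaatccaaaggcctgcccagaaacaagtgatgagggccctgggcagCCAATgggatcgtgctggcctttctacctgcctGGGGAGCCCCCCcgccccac
CXCL10: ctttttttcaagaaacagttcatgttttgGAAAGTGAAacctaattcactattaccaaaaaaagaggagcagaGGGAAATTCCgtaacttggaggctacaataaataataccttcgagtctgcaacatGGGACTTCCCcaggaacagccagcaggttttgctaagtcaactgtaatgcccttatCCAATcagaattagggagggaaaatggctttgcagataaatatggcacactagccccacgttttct
CXCL9: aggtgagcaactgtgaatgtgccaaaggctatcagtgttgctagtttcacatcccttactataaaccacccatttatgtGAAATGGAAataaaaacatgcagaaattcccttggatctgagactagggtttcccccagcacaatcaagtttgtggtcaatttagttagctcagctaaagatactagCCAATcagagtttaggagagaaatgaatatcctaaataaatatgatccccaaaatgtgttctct
CXCL11: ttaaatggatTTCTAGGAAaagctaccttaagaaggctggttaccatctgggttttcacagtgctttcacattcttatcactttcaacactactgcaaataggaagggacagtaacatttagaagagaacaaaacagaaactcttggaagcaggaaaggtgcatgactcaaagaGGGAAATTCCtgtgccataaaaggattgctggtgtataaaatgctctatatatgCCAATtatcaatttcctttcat
GBP1: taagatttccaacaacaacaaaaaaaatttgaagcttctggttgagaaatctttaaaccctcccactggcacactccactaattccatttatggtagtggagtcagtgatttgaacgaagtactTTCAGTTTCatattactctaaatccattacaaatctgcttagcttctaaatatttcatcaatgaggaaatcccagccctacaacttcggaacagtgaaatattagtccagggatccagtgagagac

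These stretches lie at chr6:32589849-32590098 on the minus strand for HLA-DRB1, chr6:33075740-33075989 on the plus strand for HLA-DPB1, chr6:32953098-32953347 (minus) for HLA-DMA and chr5:150412911-150413160 (minus) for CD74. Those of the other genes are all on the minus strand, at chr4:76023498-76023747 for CXCL10, chr4:76007510-76007759 for CXCL9, chr4:76036071-76036320 for CXCL11 and chr1:89065209-89065458 for GBP1. CCAAT boxes stood in all 4 class II promoters and in those of the 3 chemokines, but not in this stretch of GBP1. The HLA-DRB1 promoter held 1 ISRE core match and 0 kB matches, CD74 held 1 ISRE core match and 3 overlapping kB matches, and HLA-DPB1 and HLA-DMA held neither. The CXCL10 promoter held 1 ISRE core match and 2 kB matches, CXCL9 held 1 ISRE core match, CXCL11 held 1 GAS and 1 kB match, and GBP1 held 1 ISRE core match. A match describes letters and is not a site shown to be bound.

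Among interferon genes higher in the HTO4 populations, 11 of 13 were in the promoter table, and of these 9 had a CCAAT box match, 5 an X box part match, 4 an ISRE core match, 3 a kB match and 0 a GAS match. Of the 11 of 14 genes higher in the HTO2 populations, 6 had a CCAAT box match, 4 a kB match, 3 a GAS match, 3 an ISRE core match and 0 an X box part match. Over all 35116 promoters in the table, a CCAAT box match stood in 32.0%, a kB match in 9.96%, an ISRE core match in 6.88%, a GAS match in 6.57% and an X box part match in 6.35%. In the gene sets, a gene with several promoters counted once if any of them matched. The shares over all promoters instead count each promoter, 35116 of 27305 genes, so the measures are not the same. The X box part letters came from HLA-DRB1, whose match was thus given; without it, 4 of 10 genes higher in the HTO4 populations and 5 of 12 class II genes had a match. With it, X box part matches stood in 6 of the 13 class II genes with a promoter, and in 4 of 44 interferon genes that were high in all 4 populations.

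Depth differed somewhat between the groups. The HTO4 populations had 1484700 and 765923 UMIs and medians of 7228 and 6434 UMIs per cell, against 1850271 and 2577430 UMIs and medians of 9147 and 9431 in the HTO2 populations. The filter kept 34.9% and 40% of the barcodes of the HTO4 populations and 50.6% and 43.0% of those of the HTO2 populations. Median mitochondrial shares were alike, from 14.3% to 15.4%. The other 9 populations had medians of 7194 to 9450 UMIs per cell. The part of depth and of the share passing the filter in the differences below was not tested, apart from the thinning of cells. The label of ovarian carcinoma cells was checked on 10 epithelial markers, of which KRT8, KRT18 and EPCAM were well expressed, and whose sum was 4422 and 4558 CPM in the HTO4 populations and 3903 and 4030 CPM in the HTO2 populations. The other 9 had 5185 to 7639 CPM, above all 4, and by the rule below KRT7 and WFDC2 were higher in the HTO2 populations. CPM are UMIs per 1000000 gene UMIs of a population, and wherever 2 values are given for a group, the population with HTO8 comes before the population with HTO9. PAX8, a marker of many ovarian carcinomas, was low at 4.71 to 7.83 CPM, and CDH1 had 16 UMIs over the 4 populations.

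Cells that carry MHC class II by nature were looked for with their own markers. The 10 macrophage and monocyte markers summed to 56.6 and 44.4 CPM in the HTO4 populations, 64.3 and 67.9 CPM in the HTO2 populations and 51.2 to 75.5 CPM in the other 9. CD68, which tumour cells also express, had the highest level among them, 28.1 to 47.8 CPM in the 4 populations, while CSF1R and MS4A7 had 1 UMI each. LYZ and TYROBP, with 42 UMIs each, were higher in the HTO2 populations by the rule used below. Of the 8 dendritic cell markers, 5 were at 0 in all 4 populations, and the sum, nearly all of it LAMP3, was 12.8 and 7.83 CPM in the HTO4 populations against 16.2 and 20.2 CPM in the HTO2 populations. The other 9 had 0.927 to 7.45 CPM, below all 4, and LAMP3 was high in all 4 by the rule below. B cell markers summed to at most 1.31 CPM in any of the 4 populations, and PTPRC, which marks leukocytes, had 6 UMIs. T cell markers summed to at most 1.31 CPM. The part of other cell types in the class II values was not tested.

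A gene was called higher in the HTO4 populations if the lower of their 2 CPM values was at least 2 times the higher of the HTO2 values, and higher in the HTO2 populations by the same rule turned round. Genes with 30 UMIs or more over the 4 populations were compared, 10235 in all. By this rule 177 genes (1.73%) were higher in the HTO4 populations and 209 (2.04%) were higher in the HTO2 populations. A gene was called high in all 4 if neither applied and the lowest of its 4 values was at least 2 times the median of the other 9 populations, which held for 150 genes (1.47%). The 21 interferon lists had 183 members, of which 167 had enough UMIs: 13 were higher in the HTO4 populations, 14 were higher in the HTO2 populations, 69 were high in all 4 and 71 were none of these. Since the populations were chosen on these genes, nothing is read from these shares against the background. Scaling by median-of-ratios size factors moved the median log2 ratio of all genes by -0.14 and the split of all genes to 116 higher in the HTO4 populations and 266 higher in the HTO2 populations; CD74, PLAAT4 and TAPBPL then no longer met the 2-fold rule. Without HTO2+HTO8, 21 interferon genes were higher in the HTO4 populations in place of 13. Over all genes, leaving out any 1 of the 4 populations gave 296 to 347 genes higher in the HTO4 populations. For the HTO2 populations, 465 genes were higher without HTO4+HTO8 and 332 without HTO4+HTO9. With fewer populations the rule is looser, and a gene can be lost only by falling below 30 UMIs. These rises therefore follow from the rule itself.

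**Figure D1:**
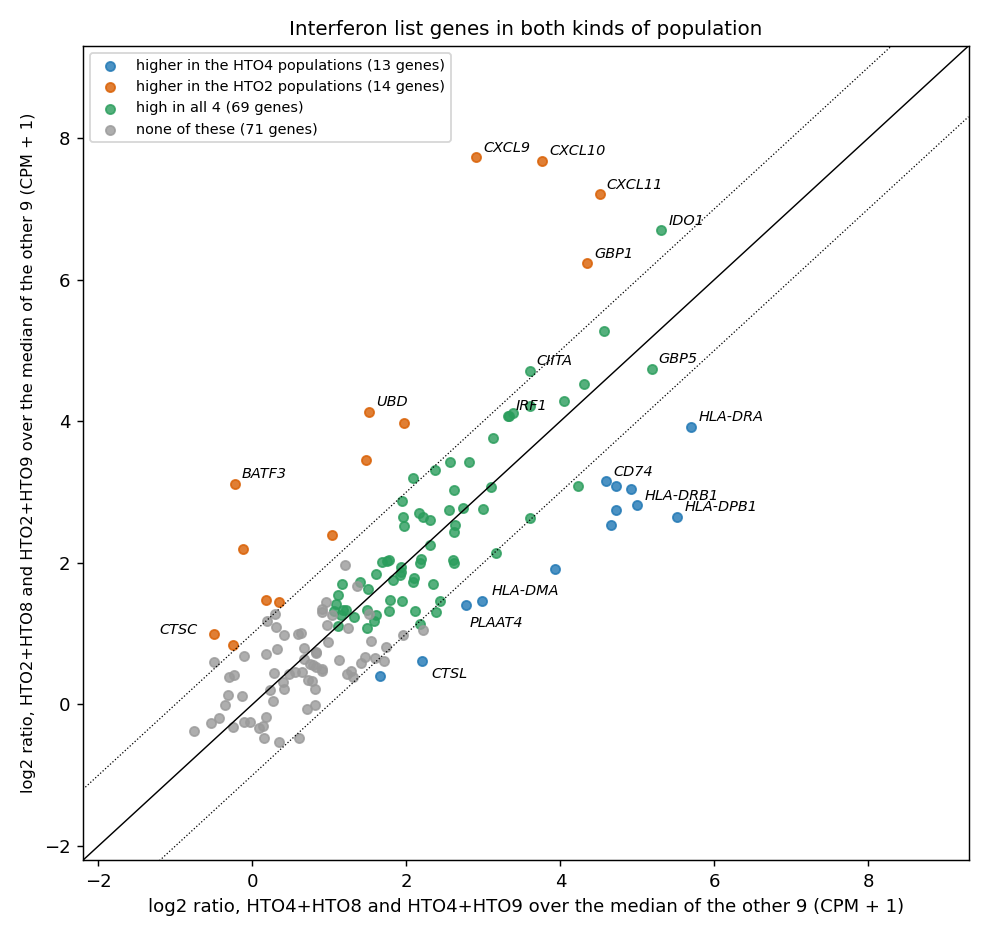
Each point is 1 of 167 interferon list genes; the x axis gives the log2 ratio of the HTO4 populations (HTO4+HTO8 and HTO4+HTO9) and the y axis that of the HTO2 populations (HTO2+HTO8 and HTO2+HTO9) over the median of the other 9 populations, both on CPM + 1. Dotted lines mark 2-fold on either side of equality; the class II genes that met the rule lie below them, the 3 CXCR3 ligands far above, and most of the 69 genes high in all 4 between.

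All 13 interferon genes higher in the HTO4 populations were at least 2 times the median of the other 9 there, and 11 of them were also at least 2 times that median in the HTO2 populations. Of the 14 genes higher in the HTO2 populations, 12 were at least 2 times that median there and 8 were so in the HTO4 populations too. For 8 of the 14, the HTO2+HTO8 and HTO2+HTO9 levels were also at least 2-fold above both HTO2+HTO6 and HTO2+HTO7, which carry the same HTO2 hashtag, and for the other 6 they were not. Of all 209 genes higher in the HTO2 populations, 139 were at least 2 times the median of the other 9 there and 28 were so in the HTO4 populations too. Most of the 209 did not stand apart from HTO2+HTO6 and HTO2+HTO7: 31 were at least 2-fold above both, and 178 were not.

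MHC class II chains and CD74 were the group that marked the HTO4 populations. Their 14 genes summed to 4979 and 5339 CPM in the HTO4 populations, against 1958 and 1383 CPM in the HTO2 populations, a ratio of 3.14 (exact 95% interval 3.05 to 3.24). This and all later intervals cover counting error only. The other 9 populations ranged from 133 to 901 CPM, below all 4. Of the 14 genes, 10 were higher in the HTO4 populations, 0 were higher in the HTO2 populations and 4 were high in all 4, with a median log2 ratio of 1.71 against 0.11 over all genes tested. HLA genes resemble each other, so reads may have been shared between them and the value of any single HLA gene is uncertain.

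HLA-DRA, the alpha chain of HLA-DR (chr6:32439842-32445046, plus strand, GRCh38), had 761 and 839.5 CPM in the HTO4 populations, against 287 and 187 CPM in the HTO2 populations. The groups did not overlap, and the HTO2 values still stood above the highest of the other 9, 50.4 CPM. HLA-DRB1, its partner beta chain, had 585 and 611 CPM in the HTO4 populations, against 162 and 107 CPM in the HTO2 populations, a ratio of 4.57 (4.14 to 5.04). The 2 HTO4 populations were close to each other, while HTO2+HTO8 was the higher of the HTO2 populations. CD74, the invariant chain that guides class II molecules to the endosome, had 2444 and 2663 CPM in the HTO4 populations, against 1088 and 816 CPM in the HTO2 populations, a ratio of 2.71 (2.60 to 2.82).

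HLA-DPB1, the beta chain of HLA-DP, differed most among class II genes, with 216 and 209 CPM in the HTO4 populations and 35.1 and 23.7 CPM in the HTO2 populations, a ratio of 7.51 (6.16 to 9.21). It was the only interferon gene higher in the HTO4 populations that met a 4-fold rule in place of the 2-fold rule. Its HTO2+HTO9 value was close to the highest of the other 9, 22.2 CPM. HLA-DPA1, the alpha chain, had 389 and 415 CPM in the HTO4 populations, against 129 and 80.7 CPM in the HTO2 populations. HLA-DQB1 had 145.5 and 132 CPM in the HTO4 populations, against 56.8 and 35.7 CPM in the HTO2 populations. HLA-DQA2 and HLA-DRB5 were lower in level, at 39.2 to 47.1 CPM in the HTO4 populations and 6.98 to 12.97 CPM in the HTO2 populations.

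The genes that edit class II peptides were part of the same group. HLA-DMA, a chain of HLA-DM, which exchanges the invariant chain fragment for antigen peptides, had 199 and 222 CPM in the HTO4 populations, against 77.8 and 66.7 CPM in the HTO2 populations. HLA-DOA, a chain of the HLA-DM modulator HLA-DO, had 24.9 and 37.9 CPM in the HTO4 populations, against 9.73 and 5.43 CPM in the HTO2 populations, and at most 0.843 CPM elsewhere. Their partners did not meet the rule: HLA-DMB had 65.3 and 78.3 CPM in the HTO4 populations and 43.8 and 21.7 CPM in the HTO2 populations, and HLA-DOB had 10.8 and 13.1 CPM in the HTO4 populations and 14.6 and 8.92 CPM in the HTO2 populations, which overlapped.

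CIITA, the transactivator of the class II genes, ran against them. It had 35.0 and 44.4 CPM in the HTO4 populations, against 105 and 68.7 CPM in the HTO2 populations, a ratio of 0.455 (0.356 to 0.576). The groups did not overlap, though the gap between them was 1.55-fold, so CIITA was counted as high in all 4; the other 9 had at most 6.04 CPM. NLRC5, which drives class I genes in a similar way, had 22.9 and 31.3 CPM in the HTO4 populations and 36.8 and 34.1 CPM in the HTO2 populations. The factors that CIITA rests on, RFX5, RFXANK, NFYA, NFYB, NFYC and CREB1, met the rule in neither direction; RFXAP had 27 UMIs and was not compared.

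Class II processing genes split. CTSL, encoding the lysosomal protease cathepsin L, had 423 and 349 CPM in the HTO4 populations, against 105 and 149 CPM in the HTO2 populations, a ratio of 3.04 (2.74 to 3.38), with the other 9 at 71.4 to 100.1 CPM. CTSC, encoding cathepsin C, lay the other way, with 438 and 424 CPM in the HTO4 populations and 1345 and 1134 CPM in the HTO2 populations. The HTO4 values of CTSC lay below the lowest of the other 9, 514 CPM. CTSS, encoding the cathepsin that trims the invariant chain, had 57.3 and 69.2 CPM in the HTO4 populations and 116 and 81.1 CPM in the HTO2 populations. CTSS, LGMN and IFI30 were high in all 4, and CTSB, CTSD and CTSH met no rule.

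**Figure D2:**
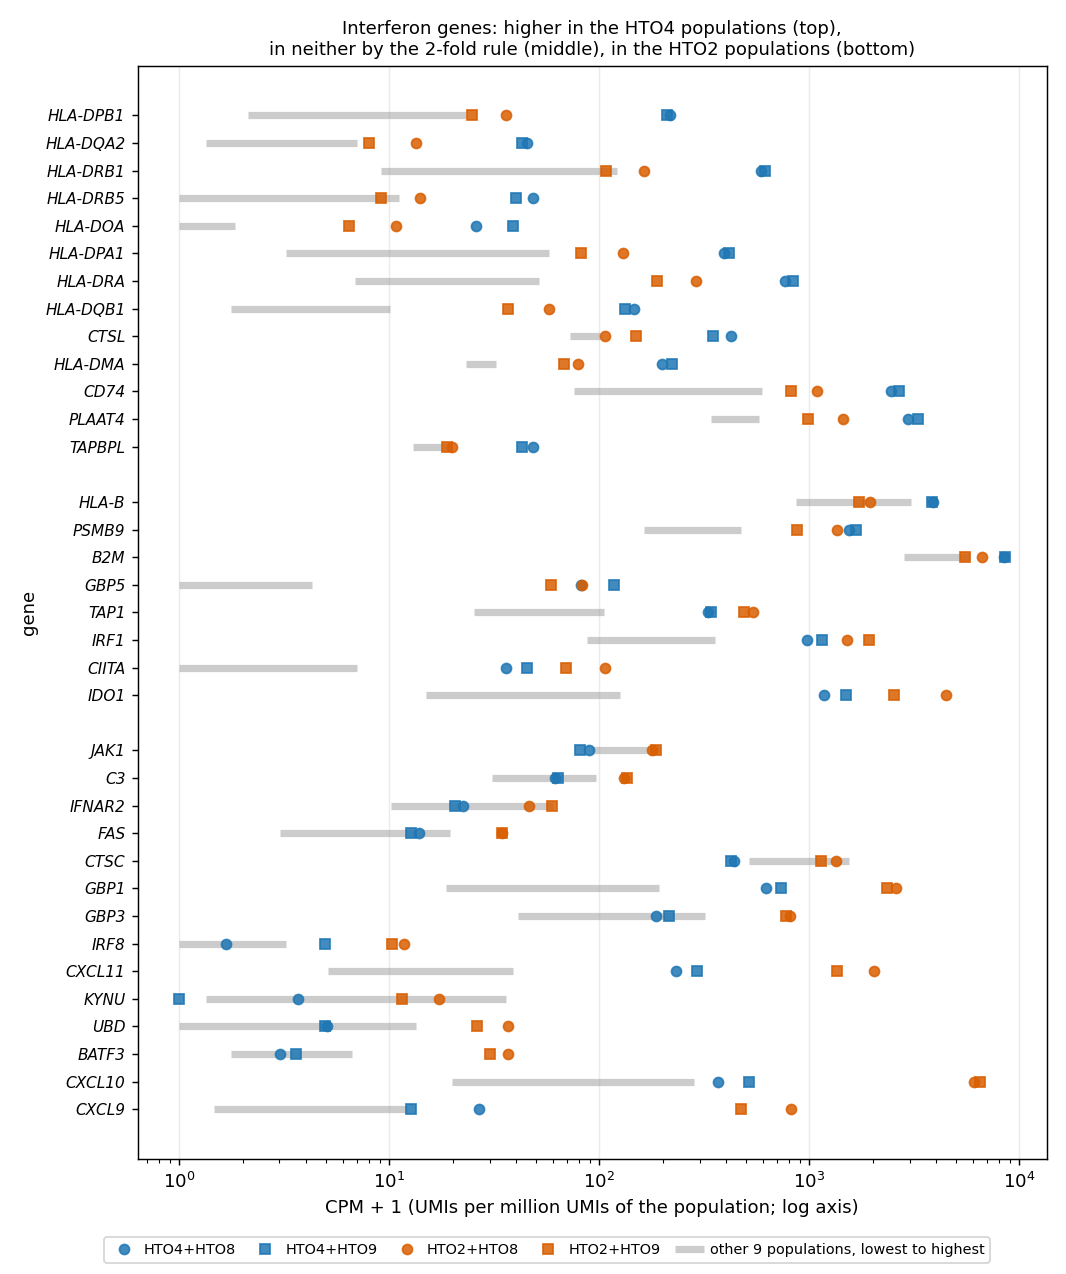
CPM + 1 on a log axis for the 13 interferon genes higher in the HTO4 populations (top), 8 further genes (middle) and the 14 higher in the HTO2 populations (bottom); blue points are HTO4+HTO8 and HTO4+HTO9, orange points HTO2+HTO8 and HTO2+HTO9, and grey bars span the other 9 populations. CXCL10 stands at 366 and 517 CPM in the HTO4 populations and 6086 and 6480 CPM in the HTO2 populations, and HLA-DRA at 761 and 839.5 CPM and 287 and 187 CPM.

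MHC class I genes leaned the same way as class II without meeting the 2-fold rule. The 7 genes, class I chains with B2M, summed to 19593 and 19512 CPM in the HTO4 populations, against 13054 and 11020 CPM in the HTO2 populations, a ratio of 1.65 (1.63 to 1.67), or 1.49 under median-of-ratios scaling. The other 9 ranged from 5922 to 14260 CPM, with the highest above both HTO2 sums. In 7 of 7 genes both HTO4 values exceeded both HTO2 values, beside 3482 of all 10235 genes, and 0 met the rule. HLA-B, a class I heavy chain, lay just outside it with 3876 and 3828 CPM in the HTO4 populations and 1953 and 1716 CPM in the HTO2 populations. B2M, the light chain, had 8418 and 8562 CPM in the HTO4 populations, against 6643 and 5530 CPM in the HTO2 populations. HLA-E and HLA-F were high in all 4.

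Immunoproteasome genes showed a like pattern, with 6933 and 7052 CPM over 5 genes in the HTO4 populations and 5259 and 3922 CPM in the HTO2 populations, a ratio of 1.56 (1.52 to 1.59). PSMB10, a catalytic subunit, had 809.6 and 916.5 CPM in the HTO4 populations, against 479 and 396 CPM in the HTO2 populations, while PSMB8 and PSMB9 had ratios of 1.25 and 1.48. The transport and loading genes did not lean as a group: 9 genes had a ratio of 1.07 (1.04 to 1.11), which was 0.967 under median-of-ratios scaling. TAPBPL, which edits class I peptides, was the member higher in the HTO4 populations, with 47.1 and 41.8 CPM there and 18.9 and 17.9 CPM in the HTO2 populations. TAP1, a subunit of the peptide transporter, had 329 and 338 CPM in the HTO4 populations and 538 and 486 CPM in the HTO2 populations, and was high in all 4.

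PLAAT4, an interferon-inducible phospholipase and acyltransferase of the retinoid-responsive family, was the last of the 13. It had 2955 and 3297 CPM in the HTO4 populations, against 1451 and 989 CPM in the HTO2 populations, a ratio of 2.60 (2.51 to 2.69). All 4 values exceeded the highest of the other 9, 576 CPM. PLAAT4 and TAPBPL lay just inside the 2-fold rule, with gaps between the nearest populations of 2.04 and 2.21, and HLA-B and HLA-G just outside it, with gaps of 1.96 and 1.95.

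The CXCR3 ligands marked the HTO2 populations. CXCL9, CXCL10 and CXCL11, neighbours on chromosome 4, summed to 622 and 819.9 CPM in the HTO4 populations, against 8930 and 8302 CPM in the HTO2 populations, a ratio of 0.0805 (0.0765 to 0.0847), or 12.4-fold lower in the HTO4 populations. All 3 genes were higher in the HTO2 populations. The other 9 ranged from 23.7 to 321 CPM, so the HTO4 populations also stood above them.

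CXCL10 (chr4:76021117-76023497, minus strand, GRCh38) had 366 and 517 CPM in the HTO4 populations, against 6086 and 6480 CPM in the HTO2 populations, and was 15.1-fold lower in the HTO4 populations (14.2 to 16.2). CXCL9 had 25.6 and 11.8 CPM in the HTO4 populations, against 821 and 470 CPM in the HTO2 populations. The HTO4+HTO9 value of CXCL9 was near the highest of the other 9, 11.1 CPM, whereas the HTO2 values were far above it. CXCL11 had 230 and 291 CPM in the HTO4 populations, against 2023 and 1352 CPM in the HTO2 populations, and was 6.50-fold lower in the HTO4 populations (5.97 to 7.10). Neither group overlapped the other for any of the 3 ligands.

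The tryptophan list, breakdown genes with WARS, was lower in sum in the HTO4 populations, at 2054 and 2461 CPM. In the HTO2 populations it had 5718 and 3472 CPM. IDO1 and WARS made up most of the sum in both groups. IDO1, the enzyme that opens the pathway, had 1177 and 1486 CPM in the HTO4 populations, against 4494 and 2528 CPM in the HTO2 populations. Because the gap between the nearest populations was 1.70-fold, IDO1 was counted as high in all 4, and the other 9 had at most 124 CPM. Without HTO4+HTO9, or without HTO2+HTO9, IDO1 was among the genes higher in the HTO2 populations. KYNU, kynureninase, had 2.69 and 0 CPM in the HTO4 populations, against 16.2 and 10.5 CPM in the HTO2 populations, from 61 UMIs in all. It had more in HTO2+HTO6 and HTO2+HTO7, at 34.9 and 23.0 CPM. AFMID leaned the other way without meeting the rule, with 17.5 and 19.6 CPM in the HTO4 populations and 8.11 and 10.5 CPM in the HTO2 populations. WARS, the tryptophan tRNA synthetase and not a breakdown enzyme, had 857 and 954 CPM in the HTO4 populations. It had 1197 and 922 CPM in the HTO2 populations, which overlapped.

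Guanylate-binding proteins, GTPases that attack intracellular microbes, summed to 2062 and 2554 CPM in the HTO4 populations, against 5734 and 5132 CPM in the HTO2 populations. Of 6 measured members, 2 were higher in the HTO2 populations and 4 were high in all 4. GBP1 had 622 and 735 CPM in the HTO4 populations, against 2580 and 2344 CPM in the HTO2 populations, and was 3.70-fold lower in the HTO4 populations (3.50 to 3.91). GBP3 had 185 and 213 CPM in the HTO4 populations, against 811 and 775 CPM in the HTO2 populations. GBP5 did not follow them, with 80.8 and 116 CPM in the HTO4 populations and 82.2 and 57.8 CPM in the HTO2 populations, while the other 9 had at most 3.27 CPM.

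Receptors and kinases of the pathway summed to 299 and 264 CPM in the HTO4 populations, against 504 and 567 CPM in the HTO2 populations, with up to 662 CPM in the other 9. In 7 of 7 genes both HTO2 values exceeded both HTO4 values, beside 2049 of all 10235 genes, and 2 met the rule. JAK1, the kinase shared by both interferon receptors, had 88.2 and 79.6 CPM in the HTO4 populations, against 177 and 186 CPM in the HTO2 populations. Its HTO4 values lay below the lowest of the other 9, 91.6 CPM, and its HTO2 values below those of HTO2+HTO6 and HTO2+HTO7, 191 and 192 CPM. IFNAR2, a chain of the type I interferon receptor, had 21.6 and 19.6 CPM in the HTO4 populations, against 45.4 and 58.2 CPM in the HTO2 populations and 59.4 CPM in HTO2+HTO6. IFNGR1, a chain of the IFNg receptor, had 29.6 and 19.6 CPM in the HTO4 populations and 50.8 and 61.7 CPM in the HTO2 populations, short of the rule. JAK1 and C3 lay just inside the rule with gaps of 2.00 and 2.07, and TYK2 and IFIH1 just outside with 1.92 and 1.84.

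Of the 12 transcription factors measured, 0 were higher in the HTO4 populations, 2 were higher in the HTO2 populations and 5 were high in all 4. IRF1 had 975 and 1153 CPM in the HTO4 populations, against 1515 and 1917 CPM in the HTO2 populations, a ratio of 0.592 (0.565 to 0.620). IRF1, STAT2, BATF2 and ETV7 were among those high in all 4. BATF3, an AP-1 family factor, had 2.02 and 2.61 CPM in the HTO4 populations, against 35.7 and 29.1 CPM in the HTO2 populations. In this gene the HTO4 populations were at the level of the other 9, whose highest was 5.62 CPM. IRF8 had 0.674 and 3.92 CPM in the HTO4 populations, against 10.8 and 9.31 CPM in the HTO2 populations, from 48 UMIs. With either HTO2 population left out, IRF8 fell below the UMI minimum and was no longer compared. That loss says nothing of its fold difference. Of the negative regulators, SOCS1, which blocks the Janus kinases, had 86.2 and 90.1 CPM in the HTO4 populations and 94.6 and 105 CPM in the HTO2 populations, and USP18 was likewise high in all 4.

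Antiviral genes, which type I interferons and IFNg share, were mostly common to the 4 populations. The IFIT family had a ratio of 0.945 (0.896 to 0.997), with 3 of 4 members high in all 4, and OAS and MX genes a ratio of 0.922 (0.887 to 0.959), with 4 of 7 measured members high in all 4. IFIT3 had 409 and 490 CPM in the HTO4 populations and 456 and 597 CPM in the HTO2 populations. MX1, an antiviral GTPase, had 756 and 688 CPM in the HTO4 populations and 850 and 785 CPM in the HTO2 populations. Apolipoproteins L, of which 4 of 4 measured members were high in all 4, had a ratio of 0.998 (0.941 to 1.06). IFI27 did not separate any of these populations from the rest, with 4401 to 5666 CPM in the 4 and 2448 to 6353 CPM in the other 9.

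Nucleic-acid sensors, cell death genes and complement genes held few genes that met the rule. IFIH1, the RNA sensor MDA5, had 224 and 259 CPM in the HTO4 populations and 557 and 476 CPM in the HTO2 populations, and 7 of 10 measured sensors were high in all 4. FAS, a death receptor, had 12.8 and 11.8 CPM in the HTO4 populations, against 33.5 and 33.4 CPM in the HTO2 populations. C3, the central complement component, had 60.6 and 62.7 CPM in the HTO4 populations, against 129.7 and 135 CPM in the HTO2 populations. UBD, the ubiquitin-like protein FAT10, had 4.04 and 3.92 CPM in the HTO4 populations, against 35.7 and 25.2 CPM in the HTO2 populations. TNFSF10, the death ligand TRAIL, was high in all 4, with 677 and 871 CPM in the HTO4 populations and 1504 and 1383 CPM in the HTO2 populations. Among checkpoint ligands, CD274, encoding PD-L1, was high in all 4, at 37.0 and 40.5 CPM in the HTO4 populations and 57.3 and 60.5 CPM in the HTO2 populations, and LGALS9, galectin-9, met no rule with 120 and 137 CPM in the HTO4 populations and 61.6 and 50.8 CPM in the HTO2 populations.

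**Figure D3:**
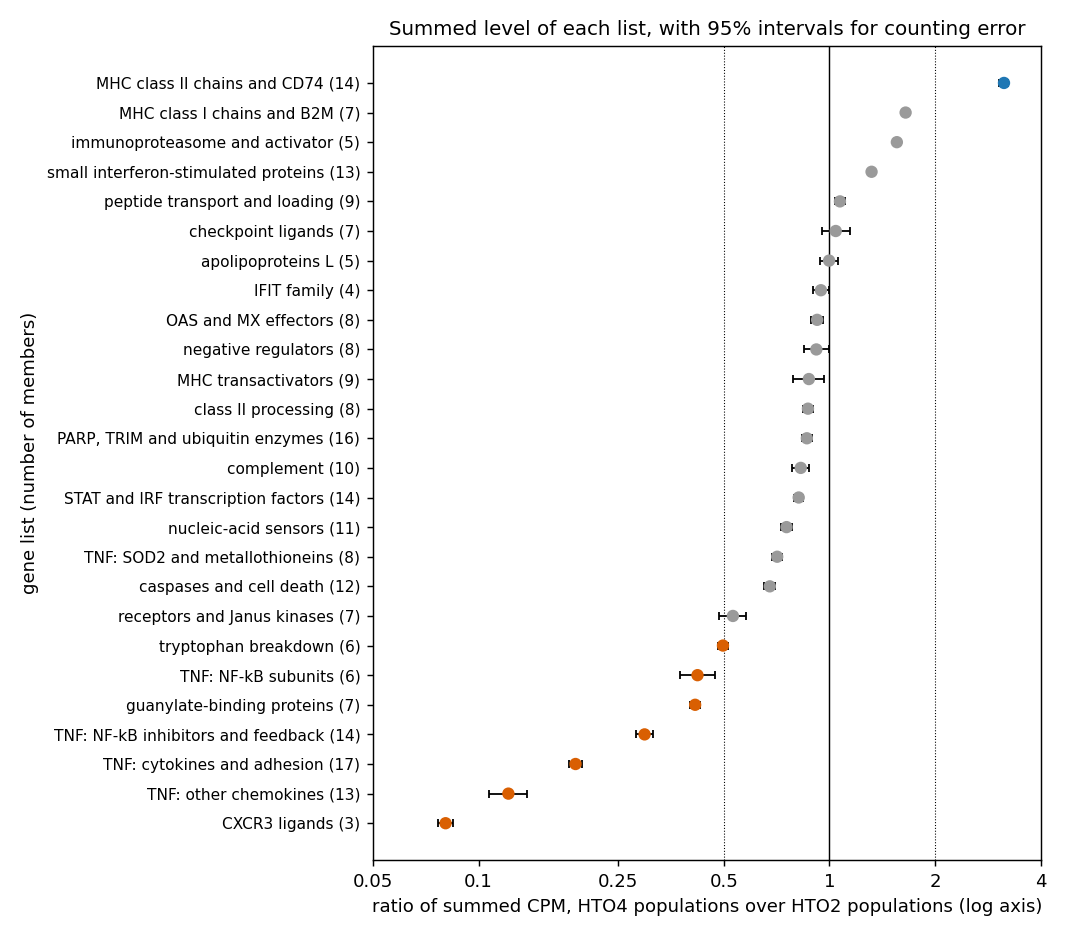
Ratio of the summed CPM of the HTO4 populations to that of the HTO2 populations for 21 interferon and 5 TNF-type lists, on a log axis with exact 95% intervals for counting error; dotted lines mark 2-fold. Class II is the single list above 2, at 3.14, and the CXCR3 ligands lie lowest, at 0.0805.

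Genes known as TNFa and NF-kB targets were higher in the HTO2 populations or met no rule, apart from 2 that were high in all 4. The 14 NF-kB inhibitors and feedback genes summed to 569 and 625 CPM in the HTO4 populations, against 1791 and 2113 CPM in the HTO2 populations, and 7 of 13 measured members were higher in the HTO2 populations. Of 11 other chemokines measured, 0 were higher in the HTO4 populations and 6 in the HTO2 populations. CCL2, a monocyte attractant, had 12.1 and 27.4 CPM in the HTO4 populations, against 238 and 701 CPM in the HTO2 populations. CCL5, an attractant of T cells and monocytes, had 4.71 and 1.31 CPM in the HTO4 populations, against 78.9 and 66.3 CPM in the HTO2 populations. The HTO4 values of both genes lay within the range of the other 9, whose highest were 850.2 CPM for CCL2 and 24.7 CPM for CCL5.

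LTB, lymphotoxin beta, had 67.4 and 47.0 CPM in the HTO4 populations, against 1205 and 1204 CPM in the HTO2 populations. ICAM1, an adhesion molecule, had 146 and 212 CPM in the HTO4 populations, against 987 and 1261 CPM in the HTO2 populations. SOD2, mitochondrial superoxide dismutase, had 149.5 and 141 CPM in the HTO4 populations, against 1071 and 1297 CPM in the HTO2 populations. LTB, ICAM1 and SOD2 were also high outside these populations, at up to 2046, 902.5 and 1460 CPM in the other 9. TNFAIP3, the NF-kB inhibitor A20, had 10.8 and 26.1 CPM in the HTO4 populations, against 58.4 and 64.8 CPM in the HTO2 populations. RELB, an NF-kB subunit, had 21.6 and 15.7 CPM in the HTO4 populations, against 84.3 and 90.8 CPM in the HTO2 populations. HTO2+HTO6 and HTO2+HTO7 had 144 and 92.4 CPM of TNFAIP3 and 96.8 and 94.6 CPM of RELB, more than either HTO2+HTO8 or HTO2+HTO9. The summed inhibitors and feedback genes likewise reached 3033 CPM in the other 9. No member of the 5 TNF-type lists was higher in the HTO4 populations.

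The 2 populations within a group resembled each other more than the groups did. Over 6540 genes with 100 UMIs or more, the median absolute log2 ratio was 0.21 between HTO4+HTO8 and HTO4+HTO9, 0.19 between HTO2+HTO8 and HTO2+HTO9, and 0.27 between the groups. Of these genes, 155 differed 2-fold within the HTO4 populations, 52 within the HTO2 populations and 359 between the groups. Within the HTO2 populations, 114 of 153 interferon genes (74.5%) had a greater value in HTO2+HTO8 than in HTO2+HTO9, beside 2816 of all 6540 genes (43.1%). IDO1, HLA-DRA and CIITA were among them, with log2 ratios of 0.83, 0.62 and 0.61. Within the HTO4 populations, 54 of 153 interferon genes (35.3%) had a greater value in HTO4+HTO8 than in HTO4+HTO9, beside 3519 of all 6540 genes (53.8%). Only CXCL9 differed 2-fold within the HTO4 populations among these 153 genes, with a log2 ratio of 1.06 from low counts, and only HERC5, a ligase for ISG15, within the HTO2 populations, with a log2 ratio of 1.13.

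Counts per cell restate the split of the sums, since they come from the cells whose UMIs chose the populations. Cells were thinned to 3000 UMIs so that depth did not set the counts, which left out 24 cells of the HTO4 populations and 10 of the HTO2 populations. The median cell then had 13 and 15.5 class II UMIs in the HTO4 populations, against 6 and 3 in the HTO2 populations. For CXCR3 ligands the median cell had 1 and 1 UMI in the HTO4 populations, against 26.5 and 22.5 UMIs in the HTO2 populations. A CXCL10 UMI was found in 30.4% (exact Clopper-Pearson 95% interval 23.8 to 37.7) and 37.3% (27.9 to 47.4) of cells of the HTO4 populations, against 94.5% (90.1 to 97.3) and 88.5% (83.7 to 92.3) of the HTO2 populations. An HLA-DRA UMI was found in 73.5% (66.4 to 79.7) and 75.5% (66.0 to 83.5) of cells of the HTO4 populations, against 50.5% (43.1 to 58.0) and 32.5% (26.5 to 38.9) of the HTO2 populations.

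Free RNA in the droplets gives some UMIs to cells that do not express a gene. The lowest of the other 9 populations is therefore the share to read these against. Across the other 9 the thinned share ran from 4.35% to 30.1% for CXCL10 and from 1.45% to 13.4% for HLA-DRA. For CXCL10 the median of the 9 was 7.65%. The CXCL10 share of HTO4+HTO8 was close to the highest of them, that of HTO2+HTO6. However, HTO2+HTO6 itself had 281 CPM of CXCL10, against 18.9 CPM in HTO4+HTO7. The part of free RNA in any share was not tested. IDO1 UMIs were found in 77.9% and 84.3% of cells of the HTO4 populations, against 91.8% and 80.8% of the HTO2 populations, which overlapped, and in 3.27% to 21.6% of the other 9. Without thinning, CXCL10 was found in 44.2% and 54.5% of cells of the HTO4 populations, against 97.8% and 91.3% of the HTO2 populations, and HLA-DRA in 82.2% and 83.6% against 71.4% and 60.6%.

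Class II and CXCR3 ligand UMIs were found together in many cells. A class II UMI was found in 99.45% and 98.04% of thinned cells of the HTO4 populations. Their share with both was therefore close to that with a CXCR3 ligand UMI, 51.4% and 52.0%. Since 1 UMI of each sufficed and the part of free RNA was not tested, these shares do not show that a cell made both. Thinned cells with both a class II UMI and a CXCR3 ligand UMI made up 51.4% (43.9 to 58.9) and 51.0% (40.9 to 61.0) of the HTO4 populations, against 93.4% (88.8 to 96.5) and 80.8% (75.1 to 85.6) of the HTO2 populations. Class II without CXCR3 ligands was found in 48.1% and 47.1% of cells of the HTO4 populations, against 0.549% and 7.26% of the HTO2 populations. In the other 9, cells with both made up 2.17% to 23.9%, and cells with class II alone 20.3% to 61.6%, so a single class II UMI is common outside these populations too. Over cells, class II and CXCR3 ligand levels are described by their correlation in each population: Pearson's r was 0.25 and 0.28 in the HTO4 populations (181 and 102 cells) and 0.49 and 0.39 in the HTO2 populations (182 and 234 cells). All cells came from 1 library and 1 pool, and cells of a population share their tumour or tumours.

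**Figure D4:**
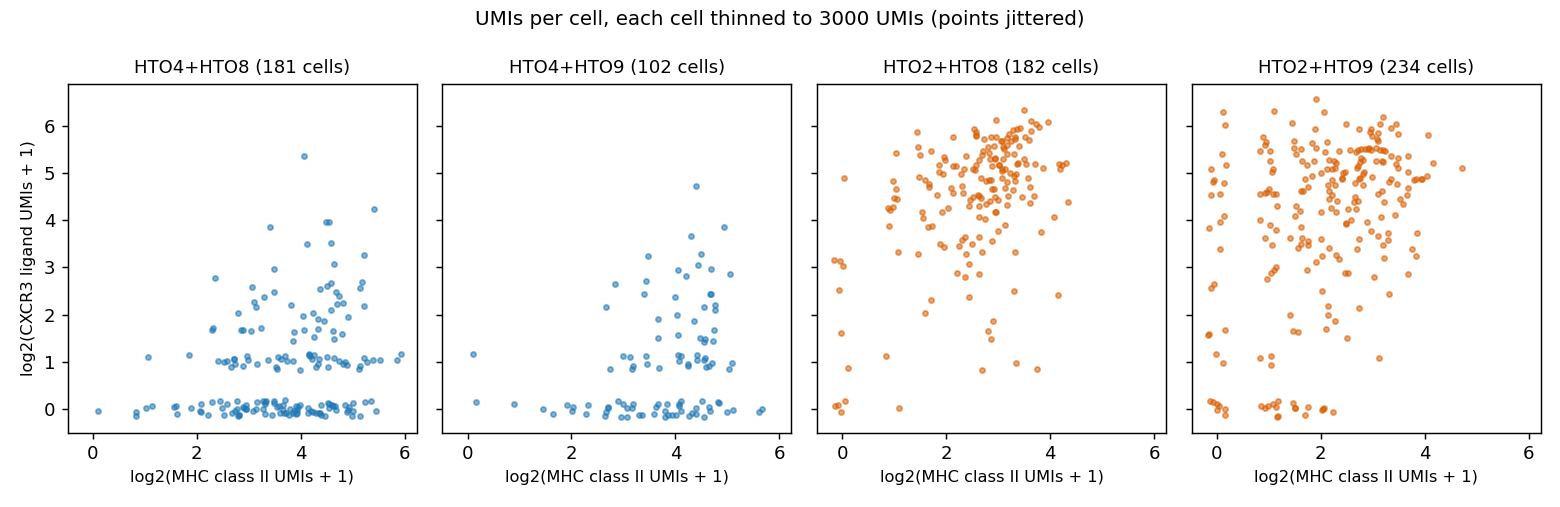
Each point is 1 cell thinned to 3000 UMIs; the x axis gives log2(class II UMIs + 1) and the y axis log2(CXCR3 ligand UMIs + 1), with a panel for each population and points jittered. Cells of HTO4+HTO8 and HTO4+HTO9 (blue) spread along the x axis near a median of 1 chemokine UMI, while those of HTO2+HTO8 and HTO2+HTO9 (orange) lie high on the y axis, with medians of 26.5 and 22.5.

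Over all 13 populations, the genes whose log2(CPM + 1) profile was most like that of HLA-DRA were PSMB9 (Pearson's r 0.983), CD74 (0.983), HLA-E (0.981), C1R (0.980) and HLA-DPA1 (0.980). For CXCL10 they were GBP1 (0.979), HAPLN3 (0.979), GCH1 (0.978), PRRC2C (0.977) and RNF114 (0.975). C1R, a complement protease, had 83.5 and 74.4 CPM in the HTO4 populations and 56.2 and 48.5 CPM in the HTO2 populations. HAPLN3, a hyaluronan-binding link protein, had 32.3 and 36.6 CPM in the HTO4 populations, against 267 and 204 CPM in the HTO2 populations. GCH1, the first enzyme of tetrahydrobiopterin synthesis, had 10.1 and 14.4 CPM in the HTO4 populations, against 40.0 and 78.8 CPM in the HTO2 populations. The correlation takes no account of the size of a difference. PRRC2C had 358 and 359 CPM in the HTO4 populations and 413 and 430 CPM in the HTO2 populations, with 280 to 365 CPM in the other 9. RNF114 had 143.5 and 149 CPM in the HTO4 populations and 215 and 230 CPM in the HTO2 populations. The profiles share 1 library and rest on 13 points, so they are given without a test.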

How the data were processed

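One pooled droplet library with its hashtag library was analysed. The values deposited by the authors are raw UMI counts, for 36601 genes plus 10 hashtags over 9083 barcodes. Per the file headers the tool was Cell Ranger 5.0.1; version 2.1.1, with GRCh38, stands in the submitters' processing notes. Which annotation they counted on is not stated in these sources.

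Populations, members and gene lists (32 lists, 21 of them of interferon genes) were chosen with earlier results of these data known. Barcodes were given to hashtag pairs and filtered as described above. Of 7485 barcodes with a pair and 3611 that passed the filter, 2994 met both, in 13 of 28 possible pairs. A further strong hashtag removed a barcode, and no doublet caller was run. UMIs were summed per population and divided by its gene UMIs. Ratios are of the 2 populations of a group pooled, with exact conditional binomial 95% intervals, and shares have exact Clopper-Pearson intervals. Both cover counting error only. No p-value was computed: there was 1 library, conditions were not mapped and the populations were chosen on these genes. The log2 median of a list is on the log2(CPM + 1) scale.

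Named genes were the markers HLA-DRA, CD74, CXCL10 and IDO1; per list up to 5 genes that met the 2-fold rule each way and the member with most UMIs; the 12 largest ratios each way among genes with 100 UMIs or more; the 2 interferon genes just inside and outside the rule each way; and 5 genes most like HLA-DRA and CXCL10. Other members named were chosen after their values were seen. PLAAT4 is the current name of RARRES3. Gene coordinates are from GENCODE 29 and promoters from RefSeq, GRCh38.p14. Alternatives were stricter and looser cell filters and pair rules, thinning to 3000 UMIs, 2 other scalings, means in place of non-overlap, other folds and UMI minimums, ratios of median member levels and leaving out each population. Scripts ran in Python 3.11.15, with pandas 2.3.3, matplotlib 3.10.9, scipy 1.17.1 and numpy 2.4.6. One gene of the interferon lists is left unreported.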

Additional observations from a re-analysis of the deposited data

Results flagged for a closer look

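Hashtags HTO1 and HTO10 were not used to form pairs, and both gave some counts in the 733 cells, above the 3 counts that a count of 0 allows. HTO1 had 17 counts in all, at most 2 in a cell. HTO10 had 677 counts, with means of 2.06 and 2.01 counts per cell in HTO4+HTO8 and HTO4+HTO9 and of 0.0757 and 0.154 counts per cell in HTO2+HTO8 and HTO2+HTO9. Among the other 9 populations the HTO10 mean ran from 0.0429 in HTO3+HTO5 to 3.47 counts per cell in HTO4+HTO6. It was 1.46 in HTO4+HTO7, 2.18 in HTO2+HTO6 and 3.36 in HTO3+HTO6. The other populations without HTO4 or HTO6 had at most 0.188, in HTO2+HTO7. HTO10 counts thus went with the hashtags HTO4 and HTO6, also outside the 4 populations. No cell of the 4 populations had more than 10 counts of HTO10, below the 20 needed for a pair.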

How the results depend on the processing

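No gene that met the 2-fold rule met it the other way under other cell filters, pair rules, thinning or scalings, where 0 such genes were found. The other alternatives use the same population values and could not have shown one. Counts of all genes higher in the HTO4 populations (177) and in the HTO2 populations (209) were 53 and 107 under a stricter cell filter (1000 genes, 10% mitochondrial UMIs), which left 27, 22, 12 and 37 cells, 681 and 463 at 1.5-fold, 10 and 67 at 4-fold, 550 and 413 on means of 2 populations, 331 and 336 with a minimum of 10 UMIs and 67 and 135 with 100. Median-of-ratios scaling gave 116 higher in the HTO4 populations, and thinning 134 higher in the HTO2 populations. Leaving out each population gave 296 to 347 and 215 to 465, where the rule is looser because it compares fewer populations. The genes called changed too. Of the 177 and 209 genes, 16 and 57 were called again under the stricter filter, where 4468 genes were compared. With thinning, 56 and 93 were called again, with 6739 genes compared. With no cell filter these numbers were 110 and 180. Interferon genes higher in the HTO4 populations (13) were 22 on means, 31 at 1.5-fold and 1 at 4-fold. They were 14 to 21 leaving out each population, with 21 without HTO2+HTO8. Those higher in the HTO2 populations (14) were 9 with thinning, 24 at 1.5-fold and 5 at 4-fold, and those high in all 4 (69) were 39 at 4-fold. The CXCR3 ligand ratio (0.0805) was 0.0906 under the stricter filter, 0.0662 with none, 0.0643 at 50% mitochondrial UMIs, 0.0899 under the looser pair rule, 0.0677 with thinning, 0.0727 with median-of-ratios scaling, 0.154 as a ratio of the median member levels (CPM + 1) of the groups and 0.0727 to 0.0957 leaving out each population. The class II ratio (3.14) was 4.66, 2.87 and 2.86 under those 3 filters, 2.84 with median-of-ratios scaling, 3.27 as such a ratio of medians and 2.61 to 3.69 leaving out each population. The log2 ratio of MCM2, an S phase gene with 34 UMIs, was -0.65 under the stricter filter, on the log2(CPM + 1) scale. The cause was not tested. Among 1104 recomputed log2 ratios of named genes, 1 changed sign in a gene that met the 2-fold rule. Sign changes in named genes that did not meet it were not counted. No paired analysis was possible because no result comes from a test and the populations carry no replicate numbers; the 2-fold rule sets each HTO4 population against each HTO2 population, so a gene that met it did so within HTO8 and within HTO9. Depth limits low genes: IRF8 and KYNU rest on 48 and 61 UMIs.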

Other observations

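Among genes outside the interferon and TNF-type lists, some hypoxia genes were higher in the HTO4 populations. The 15 genes summed to 3120 and 3517 CPM in the HTO4 populations, against 1805 and 1916 CPM in the HTO2 populations, and 6 of 14 measured members met the 2-fold rule. NDRG1, a stress and hypoxia gene, had 72.1 and 64.0 CPM in the HTO4 populations, against 9.73 and 8.15 CPM in the HTO2 populations, with up to 74.7 CPM in the other 9. SLC2A1, the glucose transporter GLUT1, had 83.5 and 56.1 CPM in the HTO4 populations, against 25.4 and 22.9 CPM in the HTO2 populations. The lowest of the other 9 was 52.4 CPM, so for SLC2A1 it was the HTO2 populations that stood apart. ANGPTL4, a lipoprotein lipase inhibitor, had 81.5 and 67.9 CPM in the HTO4 populations, against 12.97 and 15.5 CPM in the HTO2 populations, with 45.5 to 93.8 CPM in the other 9. RDH10, a retinol dehydrogenase, had 121 and 66.6 CPM in the HTO4 populations, against 10.8 and 16.3 CPM in the HTO2 populations. In the other 9 it had 31.6 to 149 CPM, so the HTO2 populations stood apart here as well. Of the 177 genes higher in the HTO4 populations, 40 were at least 2 times the median of the other 9 there, and for 61 the HTO2 populations were at least 2-fold below it. S phase genes summed to 584 and 444 CPM in the HTO4 populations and 230 and 353 CPM in the HTO2 populations. Of the 15, 1 met the rule. The other 9 had 354 to 628 CPM, a range that held the HTO4 values. The HTO2 values lay below it, that of HTO2+HTO9 only just. G2 and mitosis genes summed to 702 and 319 CPM in the HTO4 populations and 619 and 728 CPM in the HTO2 populations, which overlapped. Of these, 0 of 15 met the rule, and the other 9 had 751 to 1923 CPM, above all 4.

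Secretory and defence genes summed to 1049 and 1404 CPM in the HTO4 populations, against 2919 and 3955 CPM in the HTO2 populations, and 6 of 10 measured members were higher in the HTO2 populations. S100A9, a calcium-binding alarmin, had 3.37 and 2.61 CPM in the HTO4 populations, against 114 and 283 CPM in the HTO2 populations. RARRES1, a retinoid-induced membrane protein, had 61.3 and 64.0 CPM in the HTO4 populations, against 648 and 856 CPM in the HTO2 populations. CHI3L2, a chitinase-like protein, had 2.02 and 1.31 CPM in the HTO4 populations, against 42.7 and 60.5 CPM in the HTO2 populations. HTO2+HTO6 and HTO2+HTO7 shared these genes, with 116 and 120.2 CPM of S100A9, 708 and 581 CPM of RARRES1, and 45.3 and 33.7 CPM of CHI3L2. AGR2, a protein disulfide isomerase of secretory cells, had 45.1 and 28.7 CPM in the HTO4 populations, against 208 and 277 CPM in the HTO2 populations. Its lowest value in the other 9 was 176 CPM, so the HTO4 populations were the ones apart. The epithelial keratin KRT7 had 64.7 and 53.5 CPM in the HTO4 populations, against 150 and 209.5 CPM in the HTO2 populations. Near-identical genes SAA1 and SAA2 share reads and were both higher in the HTO2 populations.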
